A study of Homo sapiens with 4 samples.

Results

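Hypoxia-inducible factor (HIF) target genes were compared between untreated and TGF-β1-treated epithelial cells of a colon cancer. They were 10 genes chosen by name, namely HIF1A, which encodes the oxygen-regulated subunit of HIF-1, and the HIF targets CA9, CA12, ADM, BNIP3, BNIP3L, EGLN1, EGLN3, KDM3A and ANGPTL4. Every probe set (a group of short probes summarized as 1 value) whose only annotated gene symbol was one of these names was taken. This gave 23 of the 54613 probe sets tested, for 9 of the 10 genes. Expression of CA9 was not analysed here. CA12 had 7 probe sets, EGLN1 4, and HIF1A and ADM 1 each, and probe sets of 1 gene are not independent of each other.

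The cells, LSTGFBR2, carry the type II TGF-β receptor TGFBR2 under a doxycycline-inducible promoter (T-Rex system). Of the 4 arrays (HG-U133 Plus 2.0), 2 came from cells labelled as having no treatment and 2 from cells given 5 ng/ml human recombinant TGF-β1 for 16 hours, starting 16 hours after seeding. The treatment protocol gives doxycycline at 1 µg/ml from seeding and the growth protocol at 1 µM, and neither says which arrays received it. The labels name no oxygen level and no hypoxic arm, and do not say whether the line is 1 clone or whether replicates were separate cultures.

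HIF is a transcription factor made of an oxygen-labile α subunit (HIF1A or EPAS1) and a stable partner (ARNT). With oxygen present, the prolyl hydroxylases EGLN1, EGLN2 and EGLN3 mark the α subunit for the VHL ubiquitin ligase, which sends it to the proteasome, so HIF1A is known to be controlled mainly as a protein. The targets read here serve pH control (CA12), vessel tone (ADM), mitophagy (BNIP3 and BNIP3L), lipid handling (ANGPTL4), histone demethylation (KDM3A) and feedback on HIF itself (EGLN1 and EGLN3).

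HIF binds DNA at a short core, ACGTG or GCGTG, and the bases before the start of each gene were searched for it on both strands. RefSeq promoters (GRCh38.p14) were used for 8 of the 10 genes, all but BNIP3L and HIF1A, and the core lay in the 250 bases before the start in 7 of them. CA9 was 1 of these 7, and its stretch is not shown. Over the whole table, 43.2% of 35116 promoters held the core, and 47.4% of 27305 genes had it in at least 1 promoter. The following stretches are shown because these genes share the core, while their fitted log2 fold changes had different signs and none passed the test. They run 5′ to 3′ on the strand of the gene, with each core in capitals. CACGT and CACGC are the core read on the opposite strand.
ADM, chr11:10304957-10304991, plus strand: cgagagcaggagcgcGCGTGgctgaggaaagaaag
CA12, chr15:63382061-63382095, minus strand: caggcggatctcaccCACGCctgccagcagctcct
BNIP3, chr10:131982008-131982081, minus strand: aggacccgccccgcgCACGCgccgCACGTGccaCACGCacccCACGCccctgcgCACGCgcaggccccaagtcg
EGLN1, chr1:231422288-231422315, minus strand: gcggggccgtggtgtACGTGcagagcgc
KDM3A, chr2:86441330-86441364, plus strand: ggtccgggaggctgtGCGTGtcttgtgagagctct
ANGPTL4, chr19:8363906-8363940, plus strand: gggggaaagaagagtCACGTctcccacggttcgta
The BNIP3 stretch held 6 cores, 2 of them overlapping as CACGTG. At least 5 cores were found in 1.36% of all promoters. In the EGLN3 window these letters were not found. A match is a description of letters and does not show binding.

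Array values were RMA values on the log2 scale, with array medians between 6.57 and 6.61, and changes are given as TGF-β1 minus untreated. All 10 colon epithelial markers examined, among them EPCAM and KRT18, lay above the median on all 4 arrays, against 3 of 8 fibroblast, 2 of 7 endothelial and 1 of 6 leukocyte markers. Bulk RNA cannot tell fewer cells of a type from less RNA per cell. One of the TGFBR2 probe sets (207334_s_at) read 9.44 and 9.55 in the untreated and 14.70 and 14.92 in the TGF-β1 arrays (log2 fold change 5.32). The other (208944_at) read 10.47 and 10.81, then 10.58 and 10.76 (log2 fold change 0.03, limma adjusted p = 0.980). Only 1 of the 2 readings of the receptor thus separated the groups. If only the treated cells were given doxycycline, its effects and those of TGF-β1 cannot be told apart.

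None of the 23 HIF probe sets passed limma's test at a Benjamini-Hochberg adjusted p under 0.05, against 0.954% of all probe sets. The lowest adjusted p was 0.191, for ADM. At an unadjusted p under 0.05 the count was 7 of 23, or 30.4%, against 13.2% of all probe sets. Of the 7, 4 were higher and 3 lower, against 6.34% and 6.87% of all. The 7 came from 5 genes, CA12 and BNIP3 giving 2 each. Values of the 2 groups did not overlap at 13 of 23 probe sets, or 56.5%, against 40.8% of all. At 7 of them the TGF-β1 arrays were higher and at 6 lower, against 19.2% and 21.6% of all. The values ran both ways, with CA12, ADM, KDM3A, ANGPTL4 and BNIP3L above 0 at all of their probe sets and BNIP3, EGLN1, EGLN3 and HIF1A below 0 at all of theirs. These signs were not firm. At 9 of the 23 probe sets, from CA12, BNIP3L, EGLN1, ANGPTL4 and HIF1A, the sign turned when 1 array was left out, and at 1 of these (BNIP3L 221479_s_at) also with the arrays centred on housekeeping genes (-0.0054). The median log2 fold change was 0.10, against -0.01 over all probe sets, and its median size without sign was 0.25, against 0.11. Among probe sets with a mean log2 of 7 or more these sizes were 0.33 for the 16 HIF probe sets and 0.15 for all. CA12 gave 7 of the 23 probe sets and 5 of the 16, and the median of 0.10 was the value of CA12 204509_at. The 5 brighter CA12 probe sets changed by 0.39 to 0.74, all above 0.33, so these medians leaned on 1 gene. They were not computed without CA12.

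**Figure D1:**
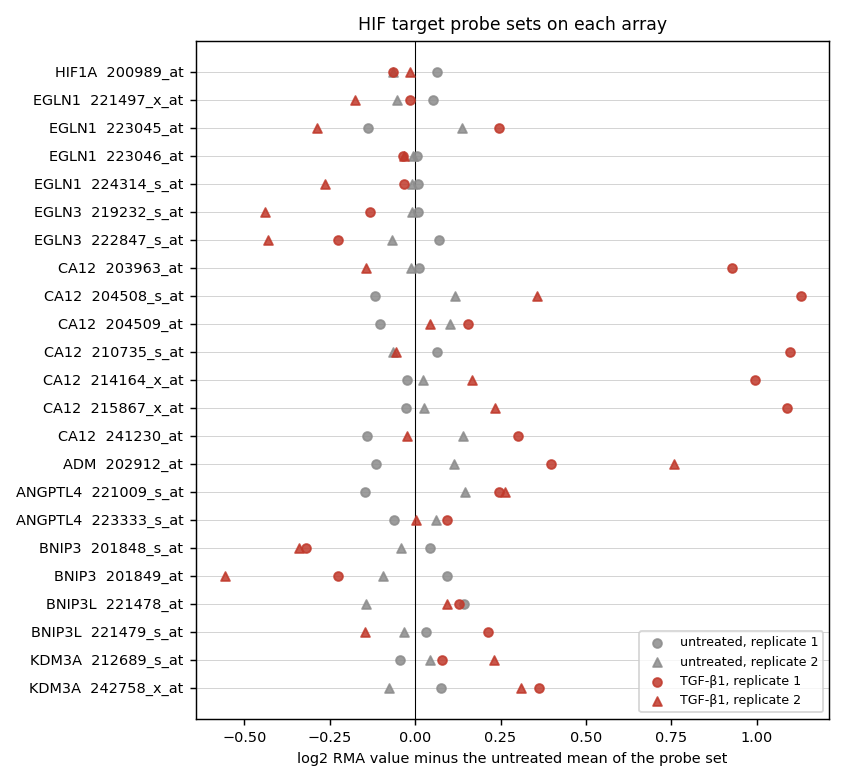
The plot shows each HIF target probe set on the 4 arrays as its log2 RMA value minus the untreated mean of that probe set, with untreated arrays in grey, TGF-β1 arrays in red, replicate 1 as circles and replicate 2 as triangles. The 5 brighter CA12 probe sets have 1 red circle far to the right, while both red points of BNIP3 and EGLN3 lie left of the grey ones.

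HIF1A, the α subunit, read 13.06 and 12.93 without treatment and 12.93 and 12.98 with TGF-β1 (200989_at). The groups overlapped. The log2 fold change came to -0.04 ± 0.108 (SE from limma, 2 arrays a group, as in all values that follow; limma adjusted p = 0.951). Its 95% interval ran from -0.31 to 0.22, so a change in HIF1A of 2-fold lay outside it. These intervals are limma's for single probe sets and are not adjusted for the number tested.

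The hydroxylase genes, which are both HIF regulators and HIF targets, were examined next. EGLN1, the main oxygen sensor of the pathway (PHD2), read 11.35 and 11.34 in the untreated and 11.31 and 11.31 in the TGF-β1 arrays by 223046_at, its brightest probe set on average. Its log2 fold change was -0.03 ± 0.101 (SE, limma adjusted p = 0.956), with an interval from -0.28 to 0.21. The other EGLN1 probe sets gave -0.02 to -0.15, and the one at -0.02 (223045_at) lay under the medians of all 4 arrays. At EGLN1 223046_at and 224314_s_at each TGF-β1 array was below each untreated one, though the changes were only -0.03 and -0.15. EGLN3 (PHD3) read 8.23 and 8.09 in the untreated and 7.93 and 7.73 in the TGF-β1 arrays by 222847_s_at. By 219232_s_at it read 7.14 and 7.12, then 6.998 and 6.69. At both EGLN3 probe sets each TGF-β1 array was below each untreated one, and the log2 fold changes were -0.33 ± 0.123 and -0.29 ± 0.135 (SE). Neither EGLN3 probe set passed (limma adjusted p = 0.336 and 0.460). Whether EGLN1 and EGLN3 differed from each other in response was not tested.

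CA12, a carbonic anhydrase at the cell surface that hydrates carbon dioxide and so moves acid out of the cell, had the widest spread. Its values by 204508_s_at were 9.54 and 9.77 in the untreated arrays, 10.78 in TGF-β1 replicate 1 and 10.01 in TGF-β1 replicate 2. The log2 fold change there, 0.74 ± 0.254 (SE, limma adjusted p = 0.285), was the largest of the 23 HIF probe sets. By 203963_at CA12 read 10.97 and 10.95 without treatment and 11.89 and 10.82 with TGF-β1, so replicate 1 was high and replicate 2 lay below both untreated arrays. The same array, TGF-β1 replicate 1, was the highest of the 4 at all 7 CA12 probe sets.

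Over the 5 CA12 probe sets with a mean log2 of 7 or more, the log2 fold changes were 0.39 to 0.74 and the adjusted p values 0.285 to 0.734. TGF-β1 minus untreated was 0.92 to 1.25 between the arrays numbered 1 and -0.13 to 0.24 between those numbered 2. Without TGF-β1 replicate 1 the log2 fold changes were -0.14 to 0.36 (limma adjusted p = 0.528 to 0.949). Without TGF-β1 replicate 2 they were 0.93 to 1.13 (limma adjusted p = 0.114 to 0.143). The size of the CA12 difference thus rested on 1 array. TGF-β1 replicate 1 exceeded replicate 2 by at least 1 log2 unit at 0.271% of all probe sets, and 2 of the CA12 probe sets were among these. CEACAM5, an epithelial adhesion gene noticed after its values were seen, was likewise highest on that array, at 10.44 and 10.18 in the untreated and 11.33 and 10.20 in the TGF-β1 arrays (201884_at). Among the other colon markers, KRT18, EPCAM, KRT8 and LGALS4 were also highest on that array. LGALS4 read 11.59 and 11.15 in the untreated and 11.89 and 11.33 in the TGF-β1 arrays. CDH1, CDH17, VIL1, CDX2 and KRT20 were not highest there. CDH1 read 9.77 and 10.08, CDH17 11.53 and 11.99 and VIL1 9.95 and 10.10 on TGF-β1 replicates 1 and 2. What set that array apart at CA12 was not tested. The other 2 CA12 probe sets, 204509_at and 241230_at, read near the array medians and gave log2 fold changes of 0.10 and 0.14.

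**Figure D2:**
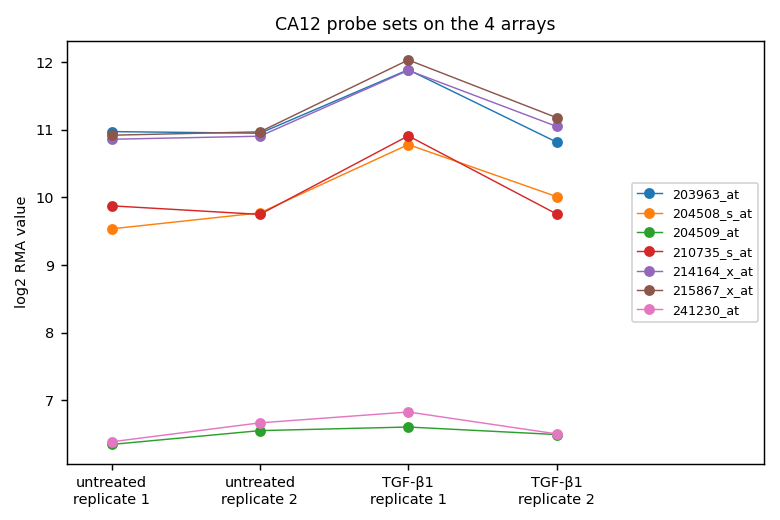
The plot gives the log2 RMA value (vertical axis) of the 7 CA12 probe sets on the 4 arrays (horizontal axis), with a line joining the points of each probe set. All 5 brighter probe sets peak on TGF-β1 replicate 1, and on TGF-β1 replicate 2 they lie -0.13 to 0.24 log2 units from untreated replicate 2.

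ADM encodes adrenomedullin, a vasodilator peptide. It read 9.38 and 9.61 without treatment and 9.90 and 10.26 with TGF-β1 (202912_at), and the groups did not overlap. ADM was 1.49-fold higher (log2 fold change 0.58 ± 0.160 SE, limma adjusted p = 0.191), with an interval from 0.19 to 0.97. Between same-numbered arrays the ADM differences were 0.51 and 0.64, and their direction was fixed because the groups did not overlap.

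ANGPTL4 encodes a secreted inhibitor of lipoprotein lipase. By 221009_s_at ANGPTL4 read 6.07 and 6.37 in the untreated and 6.47 and 6.48 in the TGF-β1 arrays, all under the array medians (log2 fold change 0.25 ± 0.132 SE, limma adjusted p = 0.514). By 223333_s_at it read 6.63 and 6.76, then 6.79 and 6.70, and the groups overlapped (log2 fold change 0.05 ± 0.110 SE). RMA values carry no detection call, and at levels this near or under the medians changes are compressed.

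The mitophagy receptor genes BNIP3 and BNIP3L, which encode related proteins of the outer mitochondrial membrane, were read by 2 probe sets each. BNIP3 read 11.31 and 11.12 in the untreated and 10.99 and 10.66 in the TGF-β1 arrays by 201849_at. By 201848_s_at it read 9.35 and 9.26, then 8.99 and 8.97. Each TGF-β1 array was below each untreated array at both BNIP3 probe sets. BNIP3 was 1.31-fold and 1.26-fold lower, with log2 fold changes of -0.39 ± 0.150 and -0.33 ± 0.104 (SE), and neither passed (limma adjusted p = 0.344 and 0.247). BNIP3L, also called NIX, read 11.16 and 10.87 in the untreated and 11.15 and 11.11 in the TGF-β1 arrays by 221478_at. By 221479_s_at BNIP3L read 10.74 and 10.68, then 10.93 and 10.56. The groups overlapped at both, with log2 fold changes of 0.11 ± 0.131 and 0.03 ± 0.147 (SE, limma adjusted p = 0.838 and 0.976). The difference between BNIP3 and BNIP3L was not tested.

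KDM3A, a demethylase of histone H3 lysine 9, read 10.20 and 10.29 in the untreated and 10.33 and 10.48 in the TGF-β1 arrays by 212689_s_at (log2 fold change 0.16 ± 0.113 SE, limma adjusted p = 0.681). Its other probe set, 242758_x_at, read 3.79 and 3.64, then 4.08 and 4.03, far under the array medians (log2 fold change 0.34 ± 0.111 SE, limma adjusted p = 0.269). The KDM3A groups did not overlap at either probe set.

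**Figure D3:**
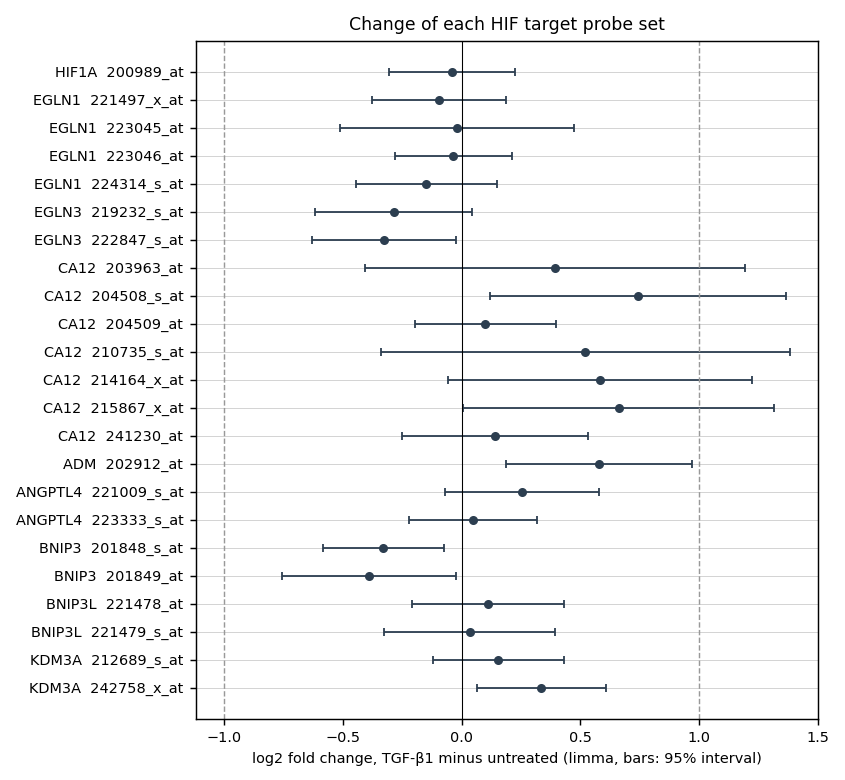
The plot gives the log2 fold change (TGF-β1 minus untreated) of each HIF target probe set with its 95% interval from limma, and dashed lines at a 2-fold change either way. The intervals of 18 probe sets lie between the dashed lines, and the 5 that reach past the right one are all of CA12.

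The precision of these values differed by gene. For 18 of the 23 HIF probe sets the 95% interval lay within a 2-fold change either way, and the 5 others were the brighter ones of CA12. At the 7 probe sets with an unadjusted p under 0.05, the interval lay on 1 side of 0. By the study's own signature rule, an unadjusted p under 0.05 with a change of 2-fold or more, 0 of the 23 qualified in either direction, against 0.95% of all probe sets. With 1 value per gene, taken as the brightest probe set on average, 0 of 9 HIF genes passed, against 3.34% of 19775 genes.

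The genes that build, hydroxylate, degrade and coactivate HIF were read as a list of 14 genes with 40 probe sets. None of the 40 passed, against 0.954% of all probe sets. At an unadjusted p under 0.05, 5 were higher (12.5%, against 6.34% of all) and 0 lower (against 6.87% of all). In either direction the share of all probe sets was 13.2%. The 5 came from 2 genes, ARNT and EPAS1. The list median was 0.06, against -0.01 over all probe sets. The largest difference was in EPAS1, which encodes the other main α subunit, HIF-2α. EPAS1 read 8.24 and 7.26 in the untreated and 10.13 and 9.29 in the TGF-β1 arrays by 200878_at. Both TGF-β1 arrays were above both untreated ones, a 3.88-fold difference (log2 fold change 1.96 ± 0.388 SE, limma adjusted p = 0.0934). This EPAS1 probe set alone among the 40 met the study's signature rule. Averaged over its 3 probe sets, EPAS1 changed by 1.01 on the log2 scale and passed among genes (limma adjusted p = 0.0492), as did 3.39% of all genes averaged in this way. None of the 9 HIF target genes passed in that fit. Over all alternatives the EPAS1 adjusted p ran from 0.0435 to 0.320, the highest without untreated replicate 2.

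ARNT, the shared β subunit, had the next largest change in that list. It read 7.41 and 7.70 in the untreated and 8.01 and 8.14 in the TGF-β1 arrays by 230619_at (log2 fold change 0.52 ± 0.136 SE, limma adjusted p = 0.170). By 218221_at, its brightest probe set, ARNT read 8.79 and 8.65, then 9.12 and 9.17 (log2 fold change 0.43 ± 0.109 SE, limma adjusted p = 0.162). No ARNT probe set passed.

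Textbook hypoxia-inducible genes outside the 10 were read as a list of 46, of which 45 had probe sets (117 in all). At a limma adjusted p under 0.05, 11 of these probe sets were higher (9.4%) and 1 lower (0.855%), against 0.65% and 0.304% of all probe sets. They belong to 7 genes. The list was chosen with earlier results of these data known, so these counts do not test it. With the replicate number added as a block, 2 were called (BHLHE40 201170_s_at and HMOX1). BHLHE40, a transcriptional repressor, read 8.40 and 8.48 in the untreated and 11.82 and 12.33 in the TGF-β1 arrays by 201170_s_at (12.4-fold, limma adjusted p = 0.00443), and rose 4.62-fold by 201169_s_at (limma adjusted p = 0.0140). LOX, a lysyl oxidase that crosslinks collagen, rose 3.72-fold by 215446_s_at (limma adjusted p = 0.0264), from 4.08 and 3.86 to 6.17 and 5.57. It rose 2.02-fold by 204298_s_at (limma adjusted p = 0.0364), while 213640_s_at was 1.12-fold higher and did not pass (limma adjusted p = 0.755). All LOX values lay under the array medians. HMOX1, the haem-degrading enzyme, rose 3.03-fold (limma adjusted p = 0.0181), from 7.77 and 7.50 to 9.37 and 9.11. SLC2A1, the glucose transporter GLUT1, rose 2.85-fold by 201249_at and 2.66-fold by 201250_s_at (limma adjusted p = 0.0306 and 0.0391). The remaining 3 genes, named after their values were seen, were DDIT4 (2.79-fold higher), CCNG2 (1.93-fold to 2.01-fold higher at 3 probe sets) and the hexokinase gene HK2 (2.54-fold lower by 202934_at). CCNG2 was also 1.12-fold higher by 1555056_at and 1.42-fold by 228081_at. HK2 was also 1.52-fold lower by 222305_at and 1.99-fold by 239410_at. None of these further probe sets passed. The list median was 0.01, with 59 probe sets above 0 and 58 below.

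With 1 array left out, 1 residual degree of freedom remains and few calls could be made among these other HIF targets. Without untreated replicate 1 or untreated replicate 2 the count was 0, without TGF-β1 replicate 1 it was 2, and without TGF-β1 replicate 2 it was 1, all of BHLHE40. All 12 kept their direction in these fits, which was fixed in advance because their groups did not overlap. The log2 fold change ran from 3.38 to 3.88 for BHLHE40 (201170_s_at), 1.46 to 1.74 for HMOX1, 1.44 to 1.53 for DDIT4 and 0.90 to 0.99 for CCNG2 (202769_at). For LOX (215446_s_at) it ran from 1.60 to 2.20, for SLC2A1 (201250_s_at) from 1.16 to 1.66 and for HK2 (202934_at) from -1.57 to -1.12. The textbook target VEGFA, an angiogenic factor named after its values were seen, had log2 fold changes of -0.10 to -0.17 at its 4 probe sets, and none passed. That HIF targets as a group differ from the rest of the array was not tested. The core motif lay in a promoter of 36 of the 39 genes of this list in the promoter table (92.3%, against 47.4% of all genes there). Counted per promoter, the shares were 77.4% for the list and 43.2% for all.

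**Figure D4:**
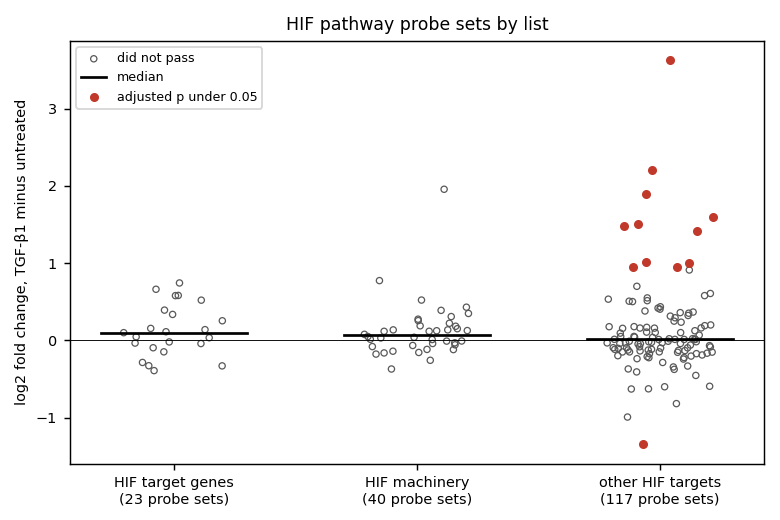
The plot shows the log2 fold change (vertical axis) of every probe set of the HIF target genes (23), the HIF machinery (40) and the other HIF targets (117), with filled red points for those at limma adjusted p under 0.05, open points for the rest, a black line at the median of each list and sideways scatter that has no meaning. The 12 red points are all in the list of other HIF targets, and the list medians lie between 0.01 and 0.10.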

How the data were processed

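RNA of 4 samples was read on HG-U133 Plus 2.0 arrays. The authors deposited 1 value per probe set and array on the log2 scale, made by RMA (background correction, quantile normalization, summarization), per the labels and the series' design text. Which RMA version was used is not stated, and the log2 scale was judged from the range. Quantile normalization hides a shift of most transcripts one way.

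Groups came from the sample titles. The 62 control probe sets were left out of 54675. The platform annotation gives 41097 probe sets 1 symbol and 1801 several, and 11777 are unnamed here. Symbols were updated by Entrez ID through RefSeq. One fit over 54613 probe sets used limma 3.58.1 in R 4.3.3 (lmFit, eBayes, two-sided, no covariate, no filter), with Benjamini-Hochberg adjustment over all. The fit was tested on simulated data. Nothing says that replicates were separate cultures, so the p-values may reflect technical spread only. An exact permutation test of 2 against 2 cannot go below p = 0.333 and was not used.

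The members and lists were chosen with earlier results of these data known. Named genes were all members, TGFBR2, and in each list the 4 called genes with the largest change, or the 2 largest where fewer than 2 were called. Alternatives were intensity filters, a trend, 2 centrings, a replicate block, each array left out, 1 value per gene and other call rules. The number of arrays limits the precision.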

Additional observations from a re-analysis of the deposited data

How the results depend on the processing

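The count of called HIF target probe sets was 0 under all 14 alternatives. For the added 2-fold minimum this was fixed in advance, and the 4 fits with 1 array left out have little power, so these 5 say nothing about stability. Among the alternatives, the lowest adjusted p of any HIF probe set was 0.114, for CA12 without TGF-β1 replicate 2, and ADM had 0.107 in the fit with probe sets averaged per gene. In the HIF machinery, 1 probe set or gene, EPAS1 each time, was called with the replicate block, with the mean of the probe sets of each gene and by the signature rule. Among the other HIF targets, 12 were called, 2 with the replicate block (BHLHE40 and HMOX1) and 0 to 2 with 1 array left out, where 1 residual degree of freedom remains and a lone array is assumed to vary like the other group. The labels give the groups the same replicate numbers without saying what they share, and deviations of same-numbered arrays from their group means correlated at 0.224 over probe sets.

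The trend and the block cannot change a log2 fold change in this balanced design. Under the centrings and with each array left out, 126 of 138 recomputed log2 fold changes kept their direction and 0 passed. The 12 that turned came from 9 probe sets with changes near 0 or from CA12. With centring on 6 housekeeping genes (of 8 listed), BNIP3L 221479_s_at went from 0.03 to -0.0054. With 1 array left out, CA12 ran from -0.14 to 0.93 (203963_at), -0.057 to 1.10 (210735_s_at), -0.0025 to 0.20 (204509_at) and -0.023 to 0.30 (241230_at). BNIP3L ran from -0.031 to 0.25 (221478_at) and -0.15 to 0.21 (221479_s_at), EGLN1 from -0.29 to 0.25 (223045_at), ANGPTL4 from -0.015 to 0.11 (223333_s_at) and HIF1A from -0.10 to 0.022. With 1 array left out, a sign cannot turn where the groups do not overlap, as at 13 of the 23 HIF probe sets. These include every probe set of BNIP3, EGLN3, ADM and KDM3A, which also kept their direction under the centrings. That too was fixed by size. The centrings removed a difference between the groups of -0.008 (array medians) or 0.039 (housekeeping genes). The smallest change in these genes was 0.16 (KDM3A 212689_s_at).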
